A study of Mus musculus with 60 samples.

Results

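Expression of 5 genes of prostaglandin synthesis and signaling was examined in the mouse brain: Pla2g4a, Ptgs2, Hpgds, Ptger3 and Ptger4. They were chosen by gene symbol, and each is 1 of the 770 genes of the nanoString nCounter Mouse Neuroinflammation Panel, a hybridization assay that counts RNA molecules with a color barcode for each gene. RNA came from the hippocampus, the hypothalamus and the brain stem of 20 female Balb/C mice, 13 weeks old at collection and kept in 14:10 light and dark. Mice of the tumor groups had received injections of 67NR cells (a mammary carcinoma line that does not metastasize, derived from 1 spontaneous mouse tumor) into the mammary glands, and mice of the vehicle groups had received the medium (DMEM) alone. On day 25 after injection, brains of perfused mice were collected at mid-dark (ZT19, where ZT0 is lights on) or at mid-light (ZT7), 5 mice per group, and all 3 regions came from the same mice. Values were analysed for 56 of 60 samples, with 4 vehicle mice in the brain stem at mid-dark, 3 in the hypothalamus at mid-dark and 4 in the hypothalamus at mid-light, and 5 in every other group.

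Prostaglandins are lipid signals made on demand. A phospholipase (cytosolic phospholipase A2, from Pla2g4a) frees arachidonic acid from membranes, a cyclooxygenase (COX-2, from Ptgs2) turns it into prostaglandin H2, and terminal synthases, among them the hematopoietic prostaglandin D synthase (from Hpgds), make the individual prostaglandins. Prostaglandin E2 acts on cell surface receptors such as EP3 (Ptger3), which lowers cyclic AMP, and EP4 (Ptger4), which raises it. In the brain COX-2 is made by forebrain neurons in an activity dependent way and by blood vessel cells during inflammation, and prostaglandin E2 acting on hypothalamic EP3 receptors is a mediator of fever.

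Ptgs2 and Hpgds were the only members that passed the test in a tumor or a time of day comparison, so the start regions of these genes are shown first. Both sequences are from RefSeq (GRCm38.p6) and hold 250 bases before and 50 bases after the annotated start, written 5′ to 3′ on the strand of the gene. Ptgs2 lies on the plus strand (chr1:150099781-150100080) and Hpgds on the minus strand (chr6:65144681-65144980). Capitals mark exact matches, on either strand, to 6 motifs: the E-box CACGTG, the cyclic AMP response element core TGACGT, the C/EBP palindrome TTGCGCAA, the NF-kB motif GGACTTTCC, the AP-1 motif TGANTCA and the TATA motif TATAAA.
Ptgs2: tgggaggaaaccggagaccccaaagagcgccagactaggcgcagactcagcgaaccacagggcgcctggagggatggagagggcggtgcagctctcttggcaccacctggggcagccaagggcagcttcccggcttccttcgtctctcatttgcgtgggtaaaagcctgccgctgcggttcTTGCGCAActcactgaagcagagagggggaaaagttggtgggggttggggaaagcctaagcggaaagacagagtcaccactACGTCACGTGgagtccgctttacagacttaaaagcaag
Hpgds: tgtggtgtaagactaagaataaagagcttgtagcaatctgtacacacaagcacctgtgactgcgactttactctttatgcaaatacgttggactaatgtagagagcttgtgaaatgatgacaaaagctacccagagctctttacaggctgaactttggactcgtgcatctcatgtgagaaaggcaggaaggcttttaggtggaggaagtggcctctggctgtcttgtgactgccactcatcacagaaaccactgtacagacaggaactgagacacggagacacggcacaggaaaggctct
The Ptgs2 window held 3 matches. The palindrome began at position -69 from the annotated start, and the core (at 13, on the minus strand) and the E-box (at 17) overlapped each other. Of 32851 promoter windows of the same length, 0.183% held the palindrome, 7.51% the core and 7.15% the E-box. NF-kB, AP-1 and TATA motifs (in 0.344%, 7.81% and 13.6% of windows) had no match in these letters for Ptgs2, and the Hpgds window held none of the 6. The windows of Ptger3 and Ptger4 held none, and of the 2 windows of Pla2g4a 1 held a TATA motif. A match of letters is a description and no binding was measured.

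Values below are normalized log2 expression, in which a difference of 1 is a doubling. Differences are given with the standard error (SE), and p values were computed by moderated tests in limma and adjusted by the Benjamini-Hochberg method across every gene tested. A gene was called at an adjusted p under 0.05. These are bulk tissue samples, so a change in the number of cells that express a gene and a change in RNA per cell cannot be told apart. The regions matched their labels by the vesicular glutamate transporters in vehicle injected mice. Slc17a7 averaged 13.0 and Slc17a6 8.55 in the hippocampus, 7.75 and 13.2 in the hypothalamus, and 10.0 and 12.8 in the brain stem.

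Each member had its own regional pattern in vehicle injected mice, and the plot of levels in the 3 regions shows all of them. The joint fit of the 3 regions called 4 of 5 members between hippocampus and hypothalamus, 3 of 5 between hippocampus and brain stem and 3 of 5 between hypothalamus and brain stem. Most of the panel differed between regions, 61%, 70% and 54.7% of all genes in the same order, so these counts do not stand apart from the background.

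**Figure D1:**
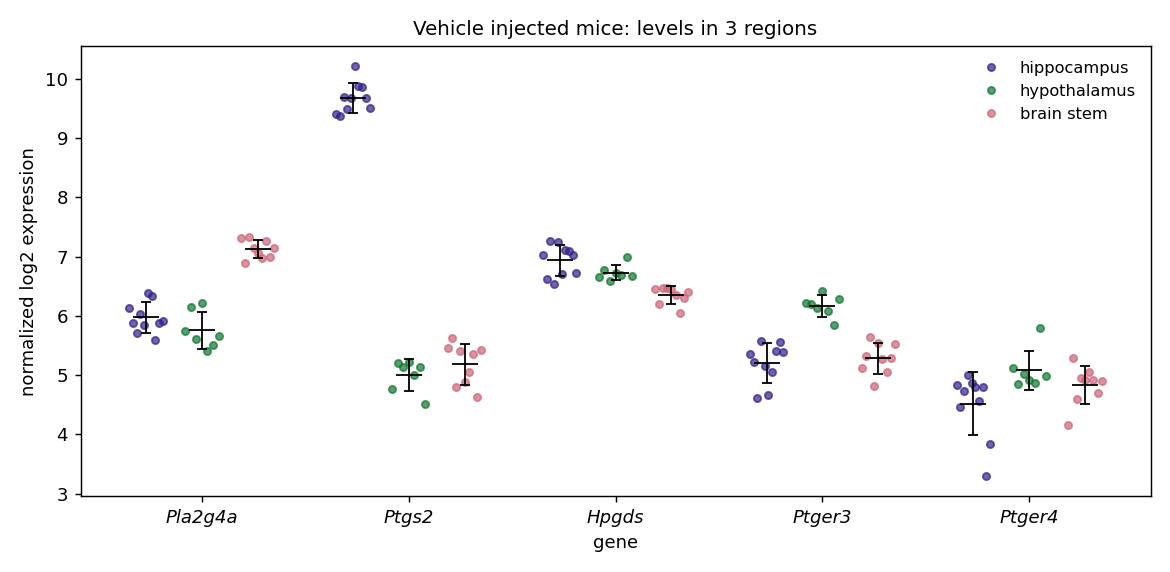
Normalized log2 expression (y axis) of the 5 genes (x axis) in vehicle injected mice of both phases, 1 point per mouse, 10 hippocampal, 7 hypothalamic and 9 brain stem samples; horizontal bars are means and error bars SD. Ptgs2 in the hippocampus lies above both other regions with no overlap, Pla2g4a is highest in the brain stem and Ptger3 in the hypothalamus; levels are not comparable between genes, because each gene has its own probe.

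Pla2g4a, the first step, was highest in the brain stem. The fitted vehicle mean was 7.12 there, against 5.97 in the hippocampus and 5.78 in the hypothalamus. The brain stem exceeded the hippocampus by 1.15 (hippocampus minus brain stem -1.15, SE 0.11, adjusted p = 1.76e-13) and the hypothalamus by 1.34 (hypothalamus minus brain stem -1.34, SE 0.12, adjusted p = 1.65e-13). Vehicle values ran from 6.90 to 7.33 in the brain stem and did not reach above 6.39 in the hippocampus or 6.21 in the hypothalamus. Hippocampus and hypothalamus differed by 0.18, which did not pass the test (adjusted p = 0.169).

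Ptgs2, the inducible cyclooxygenase, was far higher in the hippocampus than in the other regions. Its fitted vehicle mean was 9.68 in the hippocampus, 5.02 in the hypothalamus and 5.19 in the brain stem. The hippocampus was thus 25.1 times the hypothalamus (log2 difference 4.65, SE 0.15, adjusted p = 2.86e-30) and 22.4 times the brain stem (4.49, SE 0.14, adjusted p = 1.62e-31). Hypothalamus and brain stem, the neighbours in the order, differed by -0.17 (adjusted p = 0.391), within their spread.

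Hpgds, a synthase of prostaglandin D2 that in the brain is known from microglia, stepped down from hippocampus (6.94) to hypothalamus (6.74) to brain stem (6.34). All 3 steps passed the test: 0.19 (SE 0.07, adjusted p = 0.0204), 0.41 (SE 0.07, adjusted p = 5.02e-06) and, between the ends, 0.60 (SE 0.07, adjusted p = 2.72e-11). The first step lost its call when mouse 6 was left out (0.16, adjusted p = 0.0754) and with the mouse as a fixed replicate block (0.15, adjusted p = 0.0918). The ranges of hippocampus (6.54 to 7.27) and hypothalamus (6.6 to 6.99) overlapped, and that of the brain stem (6.05 to 6.47) lay below the hypothalamic one.

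The receptors were highest in the hypothalamus. Ptger3, the EP3 receptor, averaged 6.17 there, against 5.20 in the hippocampus and 5.29 in the brain stem. Hypothalamus and hippocampus differed by 0.96 (hippocampus minus hypothalamus -0.96, SE 0.14, adjusted p = 4.82e-08), and the hypothalamus exceeded the brain stem by 0.85 (SE 0.14, adjusted p = 1.36e-06). The lowest hypothalamic vehicle sample (5.84) lay above the highest of the hippocampus (5.57) and of the brain stem (5.64). Hippocampus and brain stem did not separate (-0.10, adjusted p = 0.48).

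Ptger4, the EP4 receptor, had a shallower gradient, from 5.09 in the hypothalamus to 4.85 in the brain stem and 4.52 in the hippocampus. The outer pair passed the test (hippocampus minus hypothalamus -0.57, SE 0.17, adjusted p = 0.00359). The neighbouring pairs did not (hippocampus minus brain stem -0.33, adjusted p = 0.0572, and hypothalamus minus brain stem 0.24, adjusted p = 0.265), and the ranges of all 3 regions overlapped. Leaving out 1 mouse at a time moved hippocampus minus brain stem between -0.45 and -0.19, with adjusted p from 0.0147 to 0.257. This pair passed when mouse 2, 6, 8, 13 or 28 was left out, with adjusted p from 0.0147 to 0.0484. The outer pair kept its call in these fits (-0.69 to -0.42, adjusted p up to 0.0397).

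For each member, the genes of the panel most like it were found by the Pearson correlation of their means over the 12 groups (3 regions, tumor status and phase), which is mostly a likeness in regional pattern. For Ptgs2 these were Ppp3ca, a calcineurin catalytic subunit (r = 0.990), and Il1r1, the signaling receptor of interleukin-1 (r = 0.990). Ppp3ca was at 15.4, the highest value of the table, in every vehicle hippocampal sample, so that its level there is only known to be at the top of the scale. Il1r1 averaged 9.30 in the hippocampus, 6.86 in the hypothalamus and 7.08 in the brain stem of vehicle mice, in the same order as Ptgs2. Pla2g4a was most like Slc44a1, a choline transporter (r = 0.988), and the integrin subunit Itgav (r = 0.983). Hpgds was most like Ncf1, a subunit of the phagocyte oxidase (r = 0.932), and Cx3cr1, the fractalkine receptor of microglia (r = 0.904). Ptger3 was most like Irak1 (r = 0.980) and Cd36 (r = 0.971), and Ptger4 was most like Rapgef3, a cyclic AMP sensor (r = 0.967), and the tau gene Mapt (r = 0.961). These correlations are over group means that share regions and mice, and say nothing of shared function.

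Between tumor-bearing and vehicle mice, 1 of the 5 members was called. Ptgs2 was higher in tumor-bearing mice in the brain stem, where 1.04% of all genes were called. RNA purity also differed between these groups, and the call was lost without the samples of low purity, as given below. The Ptgs2 difference in the hypothalamus was of similar size but did not pass the test. Ptgs2 did not differ detectably in the hippocampus, where its level was highest. The other members did not pass in any region.

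In the brain stem at mid-dark, the 5 tumor-bearing mice (mice 3, 7, 11, 19 and 23) had Ptgs2 values of 6.05, 5.80, 5.99, 5.98 and 5.84, and the 4 vehicle mice (4, 12, 28 and 32) had 5.62, 4.88, 5.36 and 5.42. At mid-light the tumor-bearing mice (1, 5, 9, 13 and 29) had 5.54, 6.01, 6.39, 5.93 and 5.50, and the vehicle mice (2, 6, 10, 22 and 30) had 5.45, 4.80, 5.41, 5.05 and 4.63. Within each phase every tumor-bearing mouse was above every vehicle mouse. Of all 770 genes, 1.56% had tumor values above vehicle values without overlap at mid-dark, and 0.909% did so in the mid-light groups.

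With the phases averaged, Ptgs2 in the brain stem rose by 0.71 with tumor (SE 0.13, 95% confidence interval 0.43 to 0.99, limma adjusted p = 0.00713), a ratio of 1.63, and it was the gene with rank 6 by p value. It was the 1 member called among 5, where 1.04% of all genes tested in this comparison were called. At mid-light the difference was 0.80 (SE 0.18, limma adjusted p = 0.0494; 0.78% of genes called), and at mid-dark it was 0.61 (SE 0.19, adjusted p = 0.378; 0.26% of genes called). The mid-light call lay at the threshold and was lost in 13 of the fits that left out 1 brain stem sample. The interaction of tumor and phase for Ptgs2 in the brain stem was -0.19 (95% confidence interval -0.76 to 0.37, adjusted p = 0.999), so a difference between the phases was not detectable, and 0% of genes passed for it.

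RNA purity moved with this comparison. The absorbance ratio for RNA purity in the labels (at least 1.8 in a pure sample by the usual criterion) ran from 1.34 to 1.99 (median 1.88) in the tumor brain stem samples and from 1.72 to 2.01 (median 1.96) in the vehicle samples. It was under 1.8 in 4 of 10 tumor samples and 1 of 9 vehicle samples. At mid-dark these were tumor-bearing mice 3, 19 and 23 (1.34, 1.47 and 1.68), while the vehicle samples ran from 1.95 to 2.01. At mid-light they were tumor-bearing mouse 29 (1.51) and vehicle mouse 2 (1.72). Leaving out the 5 samples under 1.8 kept only mice 7 and 11 of the mid-dark tumor group. The Ptgs2 difference was then 0.79, no smaller, but the adjusted p was 0.0643. With the ratio as a covariate it was 0.74 (adjusted p = 0.0293).

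**Figure D2:**
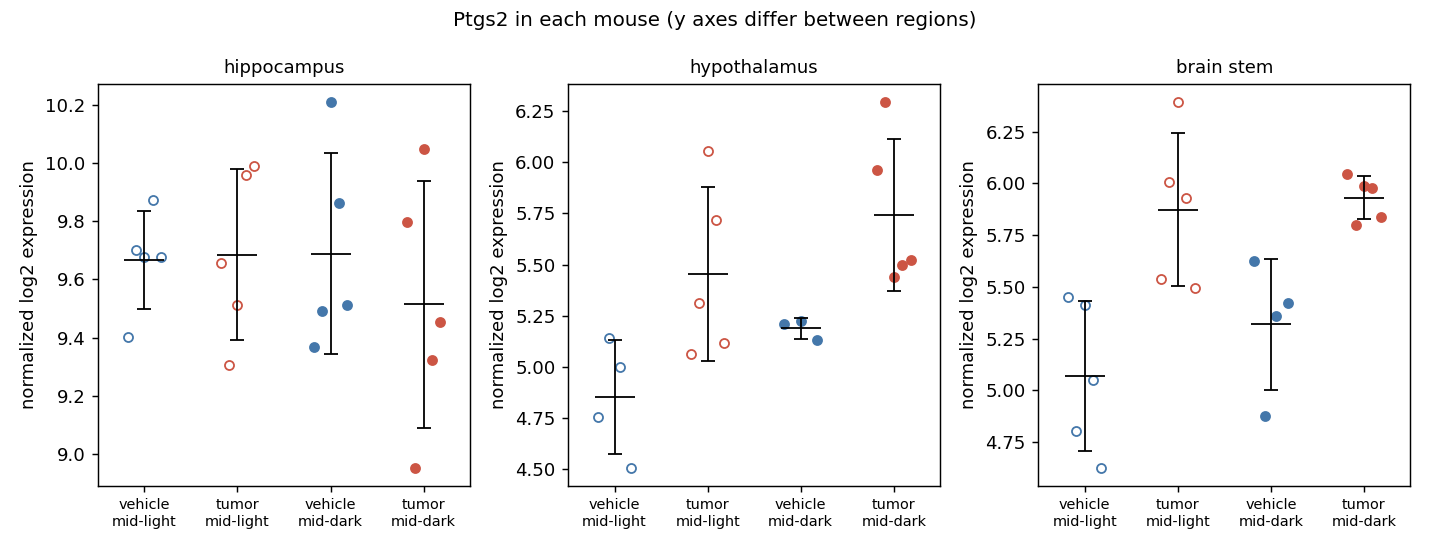
Normalized log2 expression of Ptgs2 (y axis, a separate range per region) in each mouse of the 4 groups (x axis) in hippocampus, hypothalamus and brain stem; open points are mid-light, filled points mid-dark, blue vehicle and red tumor, with horizontal bars for means and error bars for SD. In the brain stem no tumor value lies below a vehicle value of the same phase, in the hypothalamus this holds at mid-dark, and in the hippocampus the groups overlap.

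In the hypothalamus at mid-dark, the 5 tumor-bearing mice had Ptgs2 values of 5.96, 6.29, 5.44, 5.50 and 5.52 (mice 3, 7, 11, 19 and 23), and the 3 vehicle mice had 5.21, 5.22 and 5.13 (mice 4, 8 and 28). At mid-light the tumor-bearing mice had 5.06, 5.31, 6.06, 5.72 and 5.12 (mice 1, 5, 9, 13 and 29), and the 4 vehicle mice had 4.76, 5.14, 5.00 and 4.51 (mice 2, 6, 22 and 30). The groups did not overlap at mid-dark, as for 1.95% of all genes with tumor above, and overlapped at mid-light, where tumor-bearing mice 1 and 29 lay below vehicle mouse 6.

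The hypothalamic difference with the phases averaged was 0.58 (SE 0.16, 95% confidence interval 0.24 to 0.92, unadjusted p = 0.00246), a ratio of 1.49. It had rank 5 of 770 genes but an adjusted p of 0.365 by limma, and 0.26% of genes were called. The mid-dark difference was 0.55 (adjusted p = 0.888). The mid-light difference was 0.60 (adjusted p = 0.642), and 0% of genes were called at either phase. The interaction of tumor and phase was -0.05 (95% confidence interval -0.73 to 0.63), again with 0% of genes called.

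In the hippocampus, Ptgs2 ran from 8.95 to 10.0 in tumor-bearing mice (median 9.58, n = 10) and from 9.37 to 10.2 in vehicle mice (median 9.68, n = 10). Of the vehicle mice only mouse 12 lay above the tumor range. The difference was -0.08 (SE 0.14, 95% confidence interval -0.37 to 0.21, adjusted p = 0.96), and 0.52% of genes were called. The mid-dark difference was -0.17 and that of mid-light 0.02, and 0.13% of genes were called at each phase. The interaction was -0.19 (95% confidence interval -0.77 to 0.38, 0% of genes called).

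Because the hippocampal level was so much higher, the differences were also computed on values taken out of the log scale. Tumor minus vehicle was then 23.1 normalized units in the brain stem (95% confidence interval 13.0 to 33.2), where vehicle averaged 37.5, and 17.4 in the hypothalamus (4.73 to 30.0), where vehicle averaged 32.9. In the hippocampus it was -34.0 (-206 to 138) around a vehicle mean of 831. An added amount of the size seen in the brain stem lies within the hippocampal interval, so an equal added amount there was not detectable.

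Over the 3 regions together, with the mouse as a random block, Ptgs2 was higher with tumor by 0.40 (SE 0.10, adjusted p = 0.0107), where 2.34% of genes were called. The other members were not called over the 3 regions. The interaction of tumor and phase over the regions was -0.14 (adjusted p = 0.953), and 0.13% of genes passed for it. The regional effects were then compared with each other. The tumor effect in the brain stem exceeded that in the hippocampus by 0.79 (SE 0.19, 95% confidence interval 0.40 to 1.18, unadjusted p = 0.000195), with rank 2 of 770 genes and an adjusted p of 0.0752. No gene was called for this difference (0%). Leaving out 1 mouse at a time gave Ptgs2 values from 0.65 to 0.88, with adjusted p from 0.0313 to 0.596. Ptgs2 passed when mouse 2, 11 or 29 was left out (adjusted p 0.0313, 0.0321 and 0.0486) and stayed uncalled in 25 of 28 alternatives. The effect in the hypothalamus exceeded that in the hippocampus by 0.65 (unadjusted p = 0.00251, adjusted p = 0.645, 0% of genes called), and brain stem and hypothalamus differed by 0.14 (95% confidence interval -0.28 to 0.55, 0% of genes called).

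Deviations of Ptgs2 from the group means in the hypothalamus and the brain stem of the same mice had a Pearson r of 0.43 (Spearman rho 0.41, 16 mice). The median r over all genes was 0.156, and 79.4% of genes had a lower r than Ptgs2. Ptger3 had an r of 0.39 between the same regions. Among tumor-bearing mice at mid-light, mouse 9 had the highest value in both regions (6.06 and 6.39), and mice 1 and 29 had the lowest 2 in both. The order was not kept at mid-dark, where tumor-bearing mouse 7 had the highest hypothalamic value (6.29) and the lowest brain stem value (5.80). Deviations of Ptgs2 in the hippocampus ran the other way, with r of -0.37 against the brain stem (19 mice) and -0.27 against the hypothalamus (17 mice). Of all genes, 3.12% and 8.19% had a lower r in these pairs of regions. The samples of a mouse share the animal and the collection, and these correlations are given as a description.

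Among the other members the tumor differences were small. Pla2g4a differed by 0.04 in the hippocampus, -0.07 in the hypothalamus and -0.07 in the brain stem, where its 95% confidence interval was -0.20 to 0.07. Hpgds differed by -0.03, -0.10 and 0.03 in the same order, with 95% confidence intervals that lay between -0.22 and 0.18. Ptger4 differed by 0.05, -0.03 and -0.04, with the widest interval in the hippocampus (-0.37 to 0.46). By limma's test, 0 of these 3 genes reached an unadjusted p under 0.05 in any region with the phases averaged. Of all genes tested, 6.37%, 7.14% and 6.5% did so in hippocampus, hypothalamus and brain stem.

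Ptger3 in the brain stem reached an unadjusted p under 0.05, as did 6.5% of all genes tested there. Its values ran from 4.69 to 5.46 in tumor-bearing mice (median 4.93, n = 10) and from 4.82 to 5.64 in vehicle mice (median 5.29, n = 9). The difference was -0.28 (SE 0.13, 95% confidence interval -0.54 to -0.01, unadjusted p = 0.0431, adjusted p = 0.744 by limma). It ran from -0.33 to -0.17 over the alternatives and was called in 0 of 27. The brain stem samples of low absorbance ratio described for Ptgs2 are also in this comparison. The groups overlapped broadly, and in the hypothalamus, where Ptger3 was highest, the difference was -0.05 (95% confidence interval -0.28 to 0.19).

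**Figure D3:**
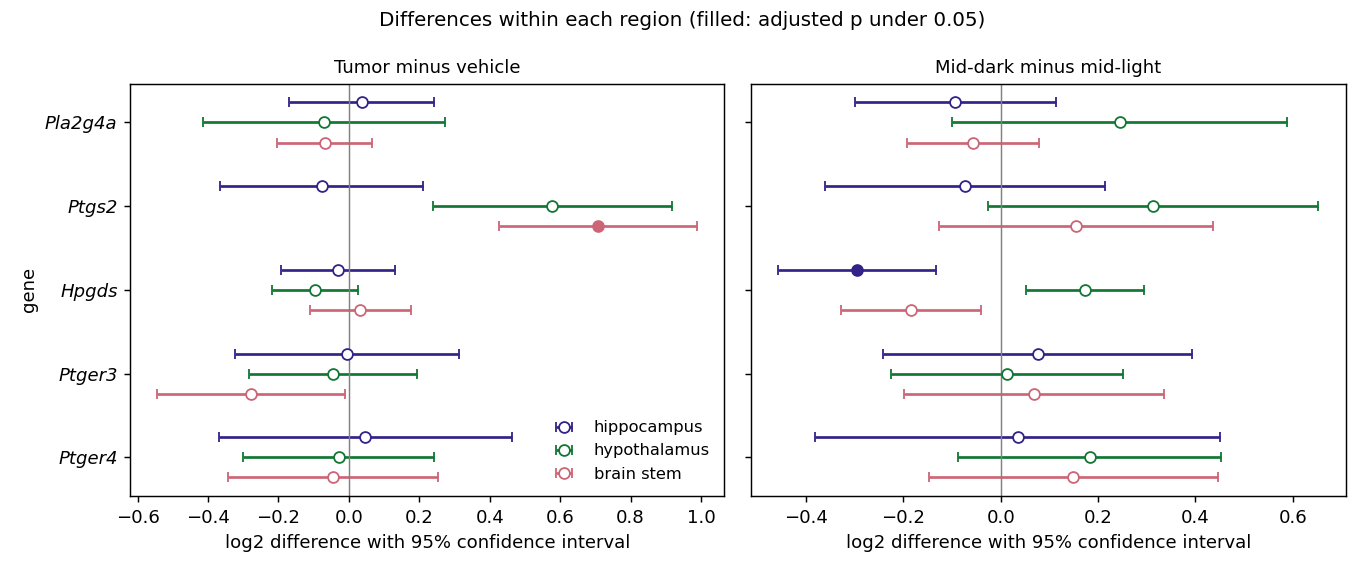
Log2 differences (x axis) of the 5 genes (y axis) between tumor and vehicle with the phases averaged (left) and between mid-dark and mid-light with tumor and vehicle averaged (right), by region; bars are 95% confidence intervals and filled points are adjusted p under 0.05. On the left only Ptgs2 in the brain stem (0.71) is filled, and on the right only Hpgds in the hippocampus (-0.29).

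Time of day changed Hpgds. In the hippocampus it was lower at mid-dark than at mid-light. In the hypothalamus its difference had the opposite sign and was not called. The difference between these regions passed the test, but that comparison was added after the values were seen. The other members were not called by time of day in any region.

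In the hippocampus of vehicle mice, Hpgds was 6.62, 6.54, 6.71, 7.09 and 6.73 in mid-dark mice 4, 8, 12, 28 and 32, and 7.03, 7.27, 7.25, 7.11 and 7.02 in mid-light mice 2, 6, 10, 22 and 30. In tumor-bearing mice it was 6.83, 6.91, 6.70, 6.74 and 6.86 at mid-dark (mice 3, 7, 11, 19 and 23) and 6.86, 7.13, 6.69, 7.31 and 7.02 at mid-light (mice 1, 5, 9, 13 and 29). Mouse 28 alone brought the vehicle groups to overlap, and the tumor groups overlapped through mice 1 and 9. With tumor and vehicle averaged, Hpgds fell by 0.29 from mid-light to mid-dark (mid-dark minus mid-light -0.29, SE 0.08, 95% confidence interval -0.46 to -0.13, limma adjusted p = 0.0329), where 5.59% of genes were called. The call was lost when any of 9 samples was left out, with adjusted p up to 0.065.

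In the hypothalamus of vehicle mice, Hpgds was 6.77, 6.73 and 6.99 at mid-dark (mice 4, 8 and 28) and from 6.6 to 6.69 in mid-light mice 2, 6, 22 and 30. In tumor-bearing mice it was 6.62, 6.63, 6.94, 6.74 and 6.73 in the mid-dark mice and 6.67, 6.49, 6.58, 6.63 and 6.41 in the mid-light mice. The vehicle groups did not overlap, as for 4.16% of all genes with mid-dark above, and the tumor groups overlapped. The difference was 0.17 (SE 0.06, 95% confidence interval 0.05 to 0.29, unadjusted p = 0.00856), which did not pass adjustment (adjusted p = 0.173, 2.34% of genes called).

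In the brain stem, Hpgds ran from 6.05 to 6.51 at mid-dark and, in mid-light mice, from 6.31 to 6.57, with overlapping groups. The difference was -0.18 (SE 0.07, unadjusted p = 0.015, adjusted p = 0.166), in the direction of the hippocampus, and 4.94% of genes were called. Over the 3 regions the difference was -0.10 (adjusted p = 0.134, 13.5% of genes called).

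The comparison of these effects between regions was added after the Hpgds values were seen. The hypothalamic time of day effect exceeded the hippocampal one by 0.47 (SE 0.10, 95% confidence interval 0.28 to 0.66, adjusted p = 0.00846), where 0.39% of genes were called. It exceeded the brain stem effect by 0.36 (SE 0.10, adjusted p = 0.375, 0% of genes called), and brain stem and hippocampus differed by 0.11 (adjusted p = 0.93, 0.13% of genes called). The first of these kept its call in every alternative that was run, with adjusted p from 0.00238 to 0.0398.

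**Figure D4:**
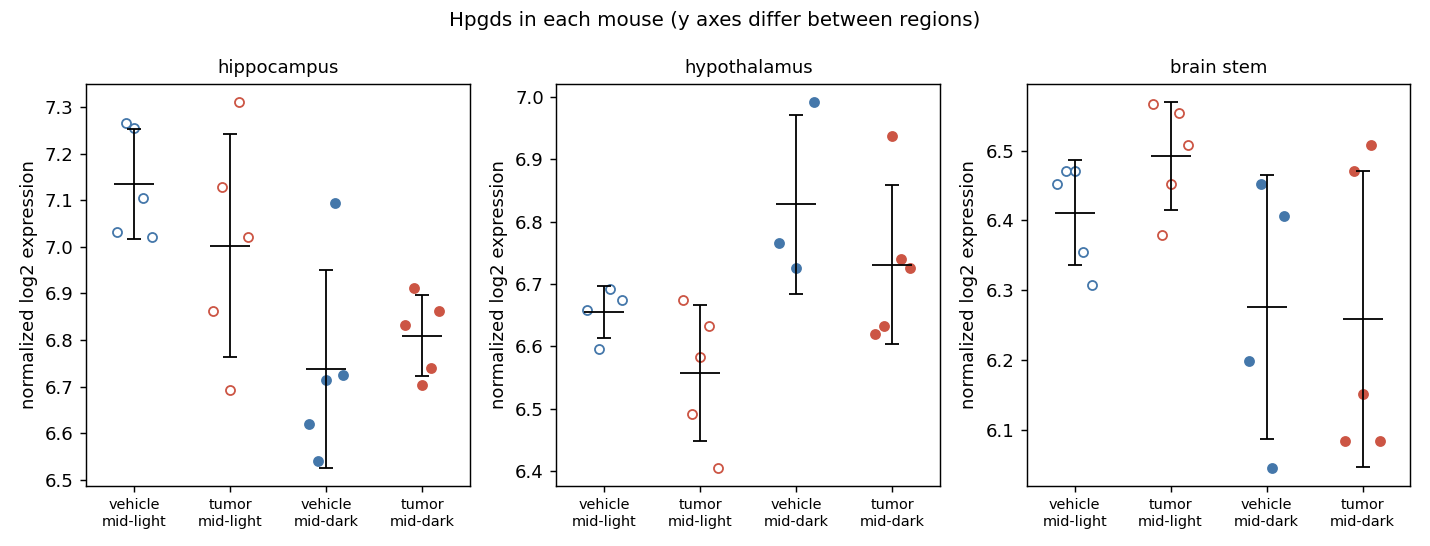
Normalized log2 expression of Hpgds (y axis, a separate range per region) in each mouse of the 4 groups (x axis) in hippocampus, hypothalamus and brain stem; open points are mid-light, filled points mid-dark, blue vehicle and red tumor, with horizontal bars for means and error bars for SD. Mid-dark means lie below mid-light means in hippocampus and brain stem and above them in the hypothalamus.

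Markers of other cells moved with time of day in the hippocampus. Of all genes tested there, 5.59% were called and 18.7% had an unadjusted p under 0.05, in either direction. Of 10 oligodendrocyte markers on the panel, 4 were lower at mid-dark by limma's adjusted p and 8 at an unadjusted p under 0.05, with a median difference of -0.33, against 0.01 over all genes. Their summed level ran from 14.4 to 15.6 (median 15.2) in mid-dark samples and from 15.2 to 15.8 (median 15.6) in mid-light samples, and none of them was at the lowest value of the table. Of 10 microglial markers 0 were called in the hippocampus (3 at an unadjusted p under 0.05), and their summed level ran from 12.5 to 12.8 in mid-dark samples and from 12.6 to 12.8 in mid-light samples. The part of these cells in the Hpgds difference was not tested.

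For the other members, mid-dark minus mid-light was within 0.10 of 0 for Ptger3 in all regions. Pla2g4a differed by -0.09 in the hippocampus, 0.24 in the hypothalamus (95% confidence interval -0.10 to 0.59) and -0.06 in the brain stem. Ptger4 differed by 0.03, 0.18 and 0.15 in the same order, all with mid-dark above. Ptgs2 differed by -0.07, 0.31 (unadjusted p = 0.0673) and 0.15, and its adjusted p was 0.418 or higher in each region.

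The members differed in how closely mice of a group matched. The SD around the group means was 0.47 for Ptger4 in the hippocampus and 0.36 for Ptger3, where the median gene had 0.18, so smaller differences could be seen for Hpgds (0.18) than for the receptors. In the hypothalamus Hpgds had 0.11 and Pla2g4a 0.35, and in the brain stem Pla2g4a had 0.14. Ptgs2 was more variable than the median gene in each region, at 0.32, 0.34 and 0.31. Within groups of a region, the most negative pair of members was Ptgs2 and Ptger3 in the hippocampus (r = -0.61, 20 mice), followed by Ptger4 and Pla2g4a in the brain stem (r = -0.60, 19 mice). The latter pair had r of -0.48 in the hypothalamus (17 mice) and 0.08 in the hippocampus, and Ptgs2 and Ptger3 had -0.27 and -0.28 in the hypothalamus and brain stem.

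Few other genes of the pathway were on the panel. Of 24 further prostanoid genes listed, only the secreted phospholipase Pla2g5 was measured. It differed by 0.16 between tumor and vehicle over the 3 regions (SE 0.14, adjusted p = 0.804). Of 16 other arachidonic acid genes, the leukotriene synthase Ltc4s (0.08, adjusted p = 0.908) and the phospholipase inhibitor annexin Anxa1 (0.19, adjusted p = 0.625) were measured. The constitutive cyclooxygenase Ptgs1 and the prostaglandin E synthase genes were among those not on the panel.

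Of the cytokine ligands, receptors and adaptors known to act on Ptgs2, 14 of 19 were measured, and 2 were called higher with tumor in the brain stem and over the 3 regions. These were Il1r1 and Osmr, the receptor of oncostatin M. Of all genes tested, 1.04% were called in the brain stem and 2.34% over the 3 regions. The list was chosen with earlier results of these data known, so its calls are a description and no independent support. The list's median difference in the brain stem was 0.05, against -0.01 over all genes. Il1r1 ran from 7.36 to 8.00 in tumor-bearing mice and from 6.86 to 7.39 in vehicle mice of the brain stem, and rose by 0.60 (SE 0.08, adjusted p = 0.000295). Osmr ran from 7.25 to 7.82 and from 6.82 to 7.38, and rose by 0.44 (SE 0.08, adjusted p = 0.00648). The ranges of both genes overlapped slightly.

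Il1r1 and Osmr were not called in the other regions. In the hypothalamus the tumor difference of Il1r1 was 0.40 and that of Osmr was 0.28 (adjusted p = 0.365 for each). In the hippocampus the tumor difference of Il1r1 was 0.01 (adjusted p = 0.989) and that of Osmr was 0.32 (adjusted p = 0.166). The tumor effect on Il1r1 was larger in the brain stem than in the hippocampus by 0.60 (SE 0.14, adjusted p = 0.0752), and that on Osmr by 0.12 (SE 0.11, adjusted p = 1.00). For Ptgs2 the same quantity was 0.79, as given above, and these values come from the same samples.

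Of 16 transcription factor genes known to act on Ptgs2, 10 were measured and 1 was called over the 3 regions. This was Nfkbia, the inhibitor of NF-kB, which was higher with tumor by 0.24 (SE 0.07, adjusted p = 0.0445). Of all genes 2.34% were called, and the list's median was -0.01, equal to that over all genes. Of 12 neuronal activity genes 5 were measured and 0 were called over the 3 regions by limma (0 at an unadjusted p under 0.05). The smallest p values were those of Arc (-0.16, adjusted p = 0.557) and Bdnf (-0.09, adjusted p = 0.643). By region, limma gave Arc -0.20 in the hypothalamus (unadjusted p = 0.0073, adjusted p = 0.365) and -0.16 in the brain stem (0.0484 and 0.744). Of all genes, 7.14% and 6.5% had an unadjusted p under 0.05 there. Arc differed by -0.11 in the hippocampus (unadjusted p = 0.598), and Bdnf did not reach an unadjusted p under 0.05 in any region.

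Markers of cells that could carry these genes were not called for tumor in the brain stem by limma, with 0 of 10 endothelial, 0 of 10 microglial, 0 of 2 perivascular macrophage, 0 of 5 neutrophil and 0 of 5 mast cell markers. At an unadjusted p under 0.05 there were 3, 0, 1, 1 and 1. Of all genes tested in this comparison, 1.04% were called and 6.5% had an unadjusted p under 0.05. The counts of 0 called markers therefore do not stand apart from the background, and among so few markers they say little. At the unadjusted level the endothelial count, 3 of 10, was above the share of all genes. The counts of 1 rest on lists of 2 or 5 markers. In the brain stem the endothelial marker Esam was higher with tumor by 0.20 (limma unadjusted p = 0.00141, adjusted p = 0.108). Emcn was lower there (-0.24, unadjusted p = 0.00118, adjusted p = 0.101). The summed endothelial level ran from 11.8 to 12.0 with tumor and from 11.9 to 12.0 with vehicle, and the summed microglial level from 12.0 to 12.5 and from 12.1 to 12.4. Over the 3 regions Esam was higher by 0.14 (adjusted p = 0.0179) and Emcn lower by 0.21 (-0.21, adjusted p = 0.00992), both endothelial, and the astrocyte potassium channel Kcnj10 was lower by 0.11 (-0.11, adjusted p = 0.0404). The summed level of the 2 choroid plexus and ependymal markers varied widely in the brain stem, from 7.06 to 13.8 with tumor (median 12.3) and from 6.87 to 13.8 with vehicle (median 10.0). The part of these cells in the Ptgs2 difference was not tested.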

How the data were processed

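RNA of each region was assayed on nCounter cartridges. The authors made the deposited values from the counts in nSolver (background subtraction, then normalization to positive controls and codeset content), quantile normalized them in Partek and deposited them on the log2 scale. Quantile normalization gives every sample of all regions nearly the same distribution, so a shift shared by most genes is removed and differences are relative to the panel. The depth of each sample is unknown, because counts before normalization were not used here, and precision rests on the number of mice. Values of 770 genes in 56 samples were used. Outliers by the raw data were, per the labels, left out before normalization, and 4 samples were not analysed here.

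Samples were grouped by the labels (region, tumor status, phase, mouse number). No 2 libraries were identical. A linear model with 4 group means per region, and 1 with 12 group means and the mouse as a random block (duplicateCorrelation, within-mouse correlation 0.136, since the regions come from the same mice), were fitted with limma 3.58.1 in R 4.3.3 and adjusted by Benjamini-Hochberg over all genes. A gene with 1 value throughout a region was not tested there. The scripts were tested on simulated data. Genes were named by rule: list genes called in any tumor comparison or else the 2 with the smallest p over the regions, and the 2 genes most like each member. The members and lists were chosen with earlier results of these data known. Alternatives were a covariate, other normalizations, a pseudocount of 10, a mean log2 minimum of 5, unmoderated p values, only the groups compared, and leaving out samples. Promoters were matched by symbol, with all 5 genes found.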

Additional observations from a re-analysis of the deposited data

Results flagged for a closer look

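In 4 of 55 groups of 4 or 5 samples, 1 sample stood apart from the rest of its group by Dixon's criterion, which chance alone meets in about 1 in 20 groups. Pla2g4a was 6.31 in the hippocampus of tumor-bearing mouse 29 at mid-light, where the other 4 mice ran from 6.01 to 6.08. Ptger3 was 6.52 in the hypothalamus of tumor-bearing mouse 5 at mid-light, where the others ran from 5.91 to 6.08. Ptger4 was 3.30 in the hippocampus of vehicle mouse 30 at mid-light, where the others ran from 4.56 to 4.86. Ptger4 was also 5.28 in the brain stem of vehicle mouse 4 at mid-dark, where the others ran from 4.90 to 4.92.

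The time of day effect on Hpgds differed between the hypothalamus and the hippocampus by 0.47 on the log2 scale (SE 0.10, limma adjusted p = 0.00846), with mid-dark above mid-light in the hypothalamus and below it in the hippocampus. The comparison was chosen after the values were seen.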

How the results depend on the processing

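Of 3598 recomputed values of 135 member results, 3558 kept their direction or stayed uncalled, 30 lost a call and 10 gained one. Most of these results were uncalled in the main fit, so the total says little of the calls. The Ptgs2 call in the brain stem at mid-light held in 10 of 28 alternatives. The Hpgds call by time of day in the hippocampus held in 18 of 27. The sign of 203 values, in 45 results that were never called, changed. In the brain stem with the phases averaged, 0 members were called without the samples of absorbance ratio under 1.8. In the brain stem at mid-light, 0 members were called with the absorbance ratio as a covariate (Ptgs2 adjusted p = 0.0574), with the gene of 1 value throughout the region kept (0.0527), with only the 2 groups compared (0.238), with ordinary p values (0.109) and without the samples of absorbance ratio under 1.8 (0.0633). Leaving out 1 sample or mouse gave 0 to 1 members called in this comparison, in the time of day comparison of the hippocampus and in the difference of the tumor effect between brain stem and hippocampus. The cause was not tested. Ptgs2 over the 3 regions was 0.40 in the paired fit with the mouse as a replicate block and 0.40 with no replicate block (adjusted p = 0.00167), and the block, random or fixed, changed no call but that of Hpgds between hippocampus and hypothalamus. A mean log2 minimum of 5 left no value for a gene below it in a region. Hypothalamic groups of 3 and 4 vehicle mice limit the precision there.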
